A study of Spirodela polyrhiza with 13 samples.

Results

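Genes first raised at stage 4 are 57 genes of the greater duckweed Spirodela polyrhiza whose messenger RNA stood higher at stage 4 of frond development than at stage 3 and whose mean at stage 6 was at least that at stage 4. They were picked from 19623 gene IDs in a table of FPKM (fragments on a gene per kilobase of its length, scaled to the fragments of the library). The conditions use L, which is log2(mean FPKM of a stage + 1). The stage 4 mean was at least 3 FPKM. L at stage 4 minus L at stage 3 was at least 0.8, and every stage 4 library lay above every stage 3 library. L at stage 3 minus L at stage 2 lay above -0.5 and below 0.8. L at stage 5 minus L at stage 4 lay above -0.8 and below 2, and L at stage 6 was at least that at stage 4. These values of all 5 stages chose the genes, so the levels and changes below are descriptions and carry no test.

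The study profiled frond tissue of wild-type plants at stages 2, 3 and 4 (3 libraries each) and stages 5 and 6 (2 libraries each), 13 libraries in all. All plants grew in SH medium, renewed at intervals of 7 days, under 16 h of light at 23 °C and 8 h of darkness at 20 °C. The labels do not say whether libraries of a stage came from separate cultures, so their spread may be technical. Recovered from the values, library totals ranged from 7708200 to 10910370 reads on genes.

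Duckweeds are small floating plants whose body is reduced to a leaf-like frond, and daughter fronds bud from pockets at its base. As a frond matures its cells stop dividing, expand and separate, and gas spaces called aerenchyma form between them and give the frond buoyancy. The study's title names plant hormones and the layout of this tissue. The IDs stand without gene names in the table and no annotation was used here, so no function is given for any member, and neither the labelled tissue nor other cell types were checked against marker genes. Whole fronds were measured in bulk, so more cells of a type and more RNA per cell cannot be told apart.

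Few genes that were higher at stage 4 met the whole rule. Of 13748 genes with at least 3 FPKM at stage 4, 299 were up by at least 0.8 in L, and in 247 of these the stage 4 libraries all lay above the stage 3 libraries. The condition on stage 2 to stage 3 took away most: 3 genes had dropped too far by stage 3 and 126 were already up by 0.8 or more, which left 118. A drop at stage 5 removed 42 more, an increase of 2 or more at stage 5 removed 3, and a mean at stage 6 below that at stage 4 removed 16. The limit of 300 members was not reached. The gene nearest the 0.8 threshold had a change of 0.81 inside it and 0.80 (0.799992) outside it, and 465 genes met every other condition but missed this one. At the 3 FPKM minimum the nearest means were 3.05 FPKM inside and 2.73 outside. For the ceiling on stage 3 minus stage 2 they were 0.78 and 0.80 (0.802506), for the floor at stage 5 -0.799 and -0.814, and for the last condition L at stage 6 minus L at stage 4 was 0.01 inside and -0.05 outside.

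Most members were rare transcripts early in development. Their median level was 1.89 FPKM at stage 2, 2.85 at stage 3, 9.43 at stage 4, 12.1 at stage 5 and 24.8 at stage 6. Over the 15608 genes that reached 1 FPKM in at least 2 libraries, which include all 57 members, the same medians were 26.0, 26.6, 25.2, 22.7 and 22.0 FPKM. Members with a mean under 1 FPKM numbered 13 at stage 2 and 6 at stage 3. Those with at least 10 FPKM numbered 13, 17, 27, 31 and 47 over stages 2 to 6. The range at stage 4 ran from 3.05 to 635 FPKM. The highest mean fell at stage 6 for 53 members and at stage 5 for the other 4. The rule put stage 4 above stages 2 and 3 and stage 6 no lower than stage 4. It thereby kept the highest mean out of the earlier stages. Over all genes tested the shares were 24.6% and 10.1%, which are not set against those of members.

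**Figure D1:**
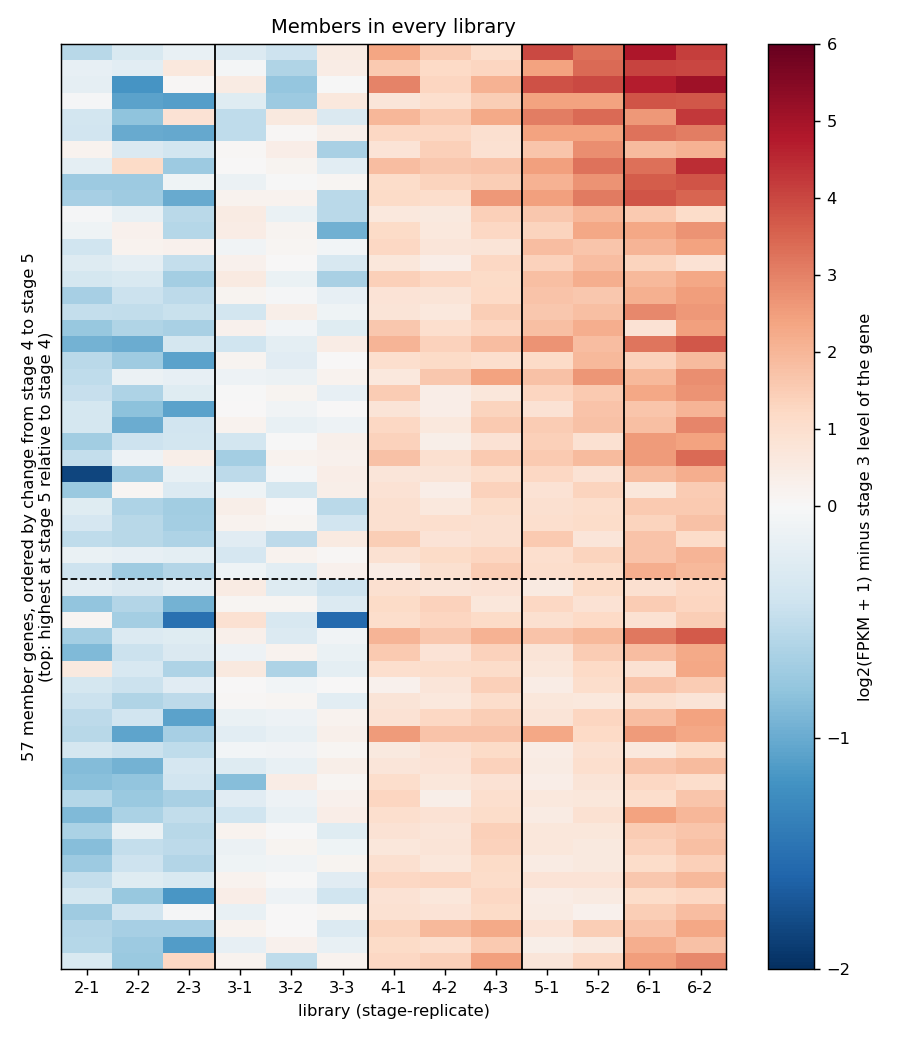
Each row is a member gene and each column a library, with stages 2 to 6 from left to right; colour gives log2(FPKM + 1) minus the gene's level at stage 3, with steeper shading below 0 than above it, and the dashed line parts the 33 members higher at stage 5 than at stage 4 (above) from the 24 lower (below). Rows below the line have a lower mean at stage 5 than at stages 4 and 6, though single stage 5 libraries can be as dark. Of the 33 rows above it, 29 have a higher mean at stage 6 than at stage 5 and 4 a lower one.

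Between stages 3 and 4 the means of the members differed by 1.79-fold to 8.93-fold, with a median ratio of 2.53. On the L scale the median change was 1.06, and 36 of the 57 members changed by at least 1, which is 2-fold on that scale. The median over all genes tested was -0.06. A limma fit over all 13 libraries put 39 members among the genes called higher at stage 4 than at stage 3 (Benjamini-Hochberg adjusted p under 0.05). The same fit called 1.91% of all genes tested higher, that is 298 rises beside 171 falls, or 400 and 100 when each library was scaled by its median ratio. Libraries of stage 4 lay above those of stage 3 in 9.53% of all genes tested and, by the rule, in every member. The members called numbered 17 without stage 4 replicate 3, 25 without stage 4 replicate 2, 19 without stage 3 replicate 2 and 15 when only these stages were fitted. Nothing is read from these counts, since the rule used this contrast.

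Spipo2G0109900 had the largest change in L of the set at this step, while by the ratio of means rarer members exceeded it. It was at 24.5, 6.83 and 12.7 FPKM in the stage 4 libraries, against 3.59, 0.885 and 2.20 FPKM in the stage 3 libraries. The stage 4 libraries differed among themselves by more than the lowest of them differed from the highest stage 3 library. Its log2 change was 2.21 (SE 0.42), and it rests on 210 reads at stage 4 and 30 at stage 3. It kept climbing, to means of 47.0 ± 3.78 FPKM at stage 5 and 95.1 ± 16.9 at stage 6 (SD, n = 2 each).

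Spipo2G0048600 came next in L and stayed near its new level. It stood at 13.3, 7.09 and 7.06 FPKM in the stage 4 libraries, against 1.12, 1.20 and 2.02 FPKM in the stage 3 libraries, a log2 change of 2.01 (SE 0.30) from 311 and 47 reads. Its mean was 7.99 ± 4.69 FPKM at stage 5 and 12.4 ± 1.52 at stage 6 (SD, n = 2 each). The lowest stage 5 library of Spipo2G0048600, at 4.68 FPKM, lay below its stage 4 libraries and the other, at 11.3 FPKM, within their range.

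The abundant members changed less in proportion. Spipo9G0056600, the member with most FPKM at stage 4, was at 607, 528 and 769 FPKM in the stage 4 libraries, against 430, 305 and 249 FPKM in the stage 3 libraries (log2 change 0.97, SE 0.21). Spipo26G0001300 was at 336, 276 and 386 FPKM in the stage 4 libraries, against 165, 166 and 192 FPKM in the stage 3 libraries (log2 change 0.92, SE 0.13). Their stage 2 means were 199 ± 55.3 and 117 ± 12.8 FPKM (SD, n = 3 each). Both genes had stage 4 libraries clear of the stage 3 libraries. The limma fit had already called both higher at stage 3 than at stage 2, with changes in L of 0.72 and 0.57. Together they held 29.0% of all reads on members, and the 10 members with most reads held 75.1%.

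Low members had the larger ratios, which the rule favours, since 1 is added to each mean before the logarithm. The 30 members with 3 to 10 FPKM at stage 4 had a median ratio of stage 4 to stage 3 means of 2.90, the 20 members with 10 to 100 FPKM had 2.20, and the 7 members above 100 FPKM had 1.96 (range 1.89 to 2.08). The median coefficient of variation at stage 4 was 29.8%, 23.8% and 16.6% in these classes. Reads behind a stage 3 mean were few for the lowest class, with a median of 44 over 3 libraries, against 183 and 1806 in the higher classes. In all, 25 members had under 50 reads at stage 3 and 10 had under 20. The gap between stages was often narrow: the lowest stage 4 library was a median of 1.53 times the highest stage 3 library, at least 2 times in 12 members and under 1.3 times in 18.

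Not every member was first raised at stage 4. In 25 members all stage 3 libraries already lay above all stage 2 libraries, a pattern seen in 20.4% of all genes tested. The limma fit called 9 of the 57 members higher at stage 3 than at stage 2, 6 of these 25 and 3 whose libraries overlapped, against 8.81% of all genes tested, with changes in L of 0.51 to 0.78. These 9 had a median stage 4 mean of 121 FPKM, and Spipo9G0056600, Spipo26G0001300 and Spipo18G0010000, described in other paragraphs, were among them. The median change of members between stages 2 and 3 was 0.51, against 0.02 over all genes tested. Only 5 members had a lower mean at stage 3 than at stage 2. The rule capped this step at 0.8 and did not require it to be flat. In the other 32 members, the 3 called among them included, the stage 3 libraries overlapped those of stage 2. With a pseudocount of 0.1 in place of 1, 17 members were called at this step. Leaving out stage 2 replicate 2 or 3 or stage 3 replicate 2 gave 3, 1 and 2 calls.

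**Figure D2:**
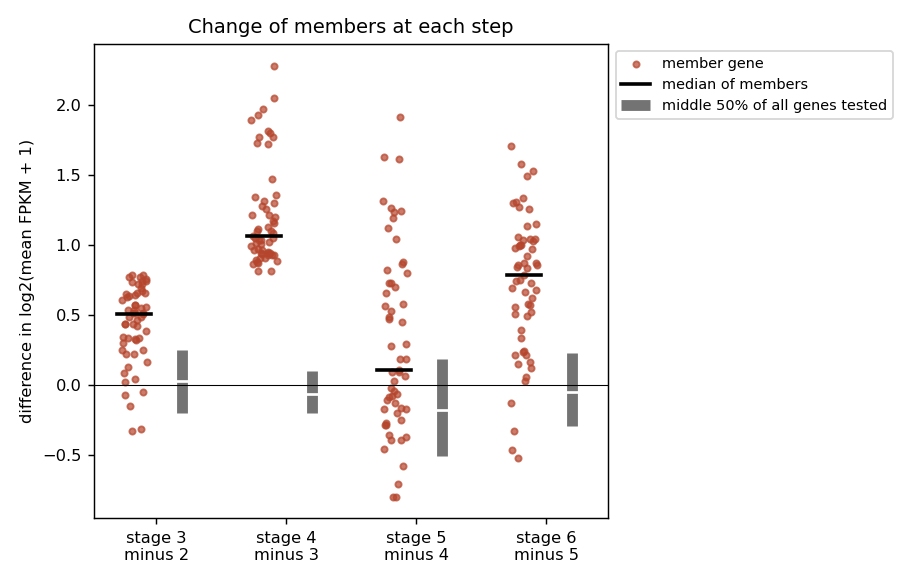
Differences in log2(mean FPKM + 1) between successive stages: each point is a member, black bars are the members' medians (0.51, 1.06, 0.11 and 0.79 from left to right), and grey bars show the middle 50% of all genes tested with the median in white. Members sit apart from the other genes most at the step the rule chose them on and spread both ways around 0 between stages 4 and 5.

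At stage 5 the members did not all move one way, and how many moved each way depended on the scaling. As deposited, 33 members had a higher and 24 a lower mean at stage 5 than at stage 4, and with each library scaled by its median ratio 42 had a higher and 15 a lower mean on the log2(FPKM + 1) scale. As deposited there was a median change in L of 0.11, against -0.18 over all genes tested. In 19 members every stage 5 library lay above every stage 4 library, in 7 every one lay below, and in 31 they overlapped. Over all genes tested these first 2 patterns took 20.9% and 42.3%. The limma fit called 14 members higher and 3 lower at stage 5, against 14.9% and 30.7% of all genes tested. Scaling by median ratio shifted the changes of all genes tested at this step up by a median of 0.19. With it the limma fit called 18 members higher and 0 lower (1 lower at an unadjusted p under 0.05). Over all genes it called 3369 higher and 2874 lower in place of 2331 and 4788. The voom method of limma, run on recovered reads without that scaling, called 3 members lower. In the fit of the deposited values, the members called in either direction numbered 17 with all libraries, 11 without stage 5 replicate 1 and 7 without stage 5 replicate 2. Under median ratio scaling the members clear of overlap numbered 21 above and 3 below. The shares of all genes tested under that scaling were not counted, so nothing is read from these numbers. The rule bounded this step on both sides, so the shares are not set against each other.

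Spipo14G0059500 went up most from stage 4 to stage 5. It was at 29.0 and 18.1 FPKM in the stage 5 libraries, against 8.99, 4.56 and 2.98 FPKM in the stage 4 libraries, a log2 change of 1.98 (SE 0.38). It had 0.525 ± 0.217 FPKM at stage 2 (SD, n = 3), from 12 reads, and 43.5 ± 15.7 FPKM at stage 6 (SD, n = 2). Spipo4G0038800 was at 11.3 and 23.2 FPKM in the stage 5 libraries, against 5.85, 4.30 and 4.55 FPKM in the stage 4 libraries (log2 change 1.56, SE 0.35). Without stage 5 replicate 2 that change of Spipo4G0038800 was 1.07. Both genes had their highest mean at stage 6, as did 29 of the 33 members that were higher at stage 5 than at stage 4.

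Spipo18G0010000 and Spipo1G0075500 dipped most in L at stage 5 among members whose libraries did not overlap. Spipo18G0010000 was at 12.9 and 15.1 FPKM in the stage 5 libraries, against 23.0, 20.9 and 31.4 FPKM in the stage 4 libraries (log2 change -0.78, SE 0.22). Its stage 6 libraries, at 48.9 and 35.8 FPKM, lay above all others of the gene. Spipo1G0075500 was at 119 and 102 FPKM in the stage 5 libraries, against 162, 150 and 187 FPKM in the stage 4 libraries (log2 change -0.58, SE 0.18), and it stood at 238 and 311 FPKM at stage 6. With median ratio scaling these changes were -0.60 and -0.39, and neither stayed past the threshold of the fit.

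A lower mean at stage 5 than at stage 4 was found, as deposited, in 10 of the 30 members with 3 to 10 FPKM at stage 4, in 10 of the 20 with 10 to 100 FPKM and in 4 of the 7 with more. Of the 7 members with all stage 5 libraries below stage 4, 4 had at least 100 FPKM at stage 4, out of 7 members at that level. Only 1 came from the 30 members under 10 FPKM. Over all genes tested 42.3% had this pattern as deposited. The share among all genes of each level was not counted, so no link with level is read from these counts. The 7 had mean ratios of stage 5 to stage 4 between 0.558 and 0.775. Under median ratio scaling 1 member of each of the 3 level classes had all stage 5 libraries below stage 4. Spipo9G0056600 and Spipo26G0001300 were both among the 7 as deposited, with 445 and 478 FPKM and with 248 and 258 FPKM in the stage 5 libraries.

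**Figure D3:**
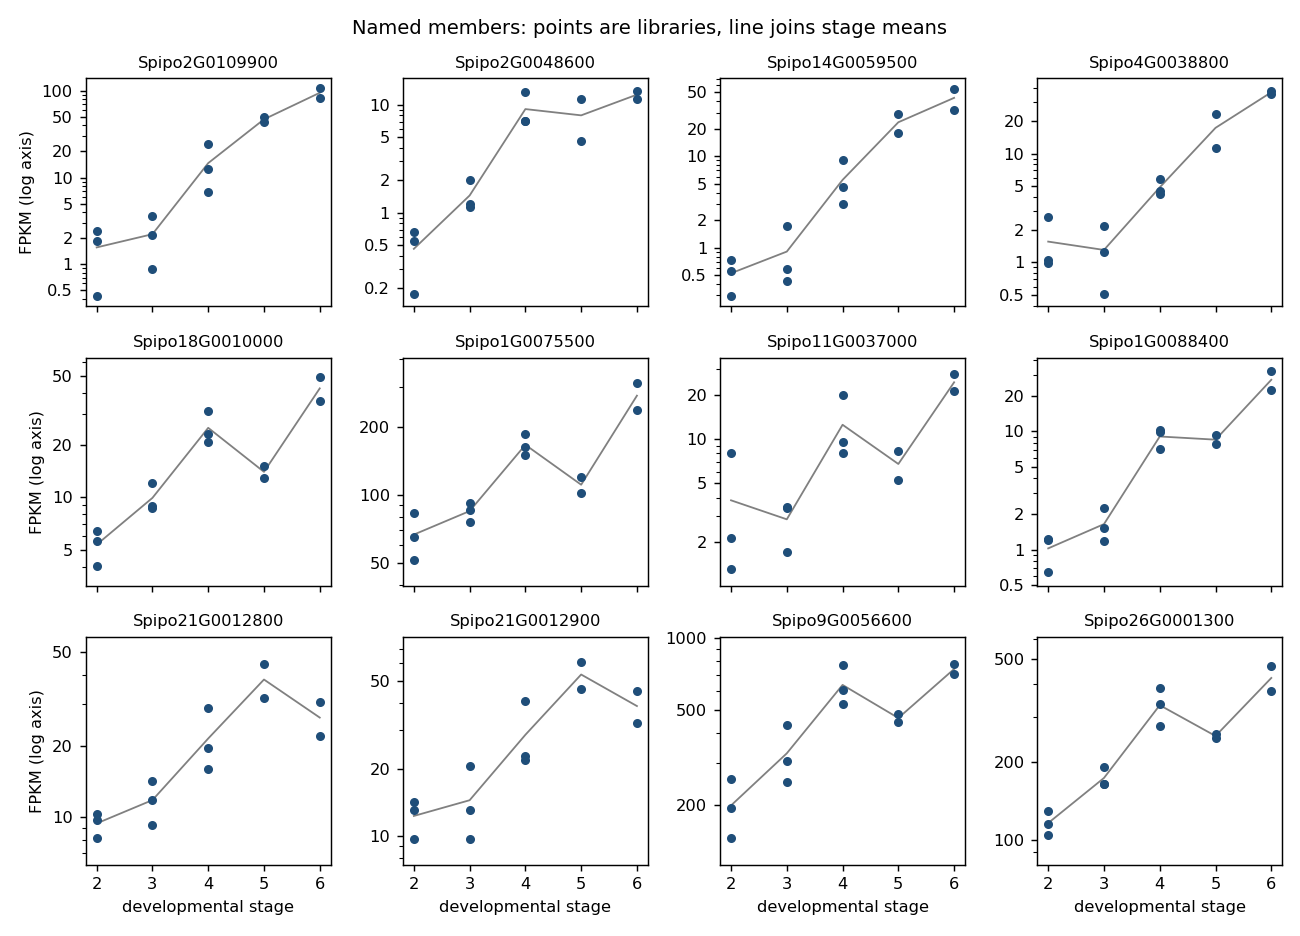
FPKM on a log axis against developmental stage for the 12 named members; points are libraries and the line joins the stage means. Spipo2G0109900, Spipo14G0059500 and Spipo4G0038800 are higher at each stage after stage 3, Spipo18G0010000 and Spipo1G0075500 dip at stage 5, and Spipo21G0012800 and Spipo21G0012900 have their highest mean at stage 5.

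Between stages 5 and 6 the members were mostly higher again. The mean at stage 6 exceeded that at stage 5 in 53 members, with a median change in L of 0.79 against -0.05 over all genes tested. All stage 6 libraries lay above all stage 5 libraries in 42 members and below them in 2, patterns that took 24.6% and 33.2% of all genes tested. The fit called 16 members higher and none lower at stage 6, where 5.35% of all genes tested were called higher and 7.2% lower. At an unadjusted p under 0.05 the limma fit had 0 members lower and voom on reads recovered from the values had 1. By the adjusted p voom called 0 lower and 21 higher. Over all genes the fit of FPKM called 835 higher and 1124 lower, or 1130 and 772 with median ratio scaling. For the 24 members that were lower at stage 5 than at stage 4 the rule forces a higher value at stage 6, and 10 of the 16 calls were among them. For the other 33 the rule let stage 6 fall back no further than the stage 4 level. Their rise from stage 4 to stage 5 had a median of 0.70 in L and was as small as 0.03. Among these 33 the median change to stage 6 was 0.69, and 29 were higher and 4 lower. Of the 42 members with all stage 6 libraries above stage 5, 20 were among the 24 and 22 among the 33. The rule thus shaped this step in all members, so the shares are not set against each other. The count of calls depends on single libraries. Higher calls numbered 5, 6 and 5 without stage 5 replicate 1, stage 5 replicate 2 and stage 6 replicate 1, and without stage 6 replicate 2 there were 7 higher and 1 lower.

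Spipo11G0037000 had the largest change at this last step. It was at 21.2 and 27.6 FPKM in the stage 6 libraries, against 5.30 and 8.24 FPKM in the stage 5 libraries (log2 change 1.72, SE 0.54), from 130 and 36 reads. Neither this change nor its change from stage 3 to stage 4 was called (limma adjusted p 0.0537 and 0.0528). Its stage 2 libraries were uneven, at 2.11, 1.31 and 8.07 FPKM, and the last of these exceeded 1 stage 4 library of the gene, at 8.01 FPKM. Spipo1G0088400 was at 22.3 and 32.4 FPKM in the stage 6 libraries, against 7.79 and 9.24 FPKM in the stage 5 libraries (log2 change 1.56, SE 0.26). Between stages 4 and 5 its mean hardly moved, at 8.52 ± 1.03 FPKM (n = 2) at stage 5 and 9.06 ± 1.66 (n = 3) at stage 4 (SD). Its stage 3 libraries lay between 1.17 and 2.24 FPKM, all below its stage 4 libraries at 7.16 to 10.2 FPKM.

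Spipo21G0012800 and Spipo21G0012900 were the members whose stage 6 libraries all lay below stage 5, and their rows follow each other in the table, the 1 such pair among the members. Spipo21G0012800 was at 30.7 and 22.0 FPKM in the stage 6 libraries, against 31.9 and 44.6 FPKM in the stage 5 libraries (log2 change -0.52, SE 0.27). Spipo21G0012900 was at 44.9 and 32.2 FPKM in the stage 6 libraries, against 46.2 and 60.8 FPKM in the stage 5 libraries (log2 change -0.47, SE 0.34). Neither change was called, and the higher stage 6 library came within 2 FPKM of the lower stage 5 library in both. Their coding lengths were 1116 and 1089 bases. Whether they are near-identical copies that share reads was not tested.

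The order of the libraries within a stage was not part of the rule beyond the gap between stages 3 and 4. At stage 4, replicate 3 was the highest library in 33 of 57 members and replicate 2 in 7, while replicate 3 was highest in 31.0% of all genes tested. The members' median deviation from the gene's stage mean was 0.18 (log2) in replicate 3 and -0.17 in replicate 2. Over the tested genes that are not members, the correlation with the stage 3 mean across genes was 0.983, 0.985 and 0.978 for stage 4 replicates 1, 2 and 3. With the stage 5 mean it was 0.935, 0.931 and 0.931 in the same order. What part library differences have in the members' values was not tested. Reapplied without stage 4 replicate 3, the rule kept 38 of the 57 members and took in 10 others. At stage 5, replicate 2 was the higher library in 43 members (46.6% of all genes tested), and at stage 6 replicate 2 was the higher in 39 (55.4%).

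Members took a small share of each library, with the highest mean at stage 6. It was 0.0611% ± 0.00635 of reads at stage 2, 0.0894% ± 0.0133 at stage 3 and 0.187% ± 0.0231 at stage 4 (SD, n = 3 each), then 0.185% ± 0.0194 at stage 5 and 0.291% ± 0.0449 at stage 6 (n = 2 each). The 3 libraries of stage 4 held 0.181%, 0.167% and 0.212%, all above the highest stage 3 library at 0.104%, an order that the rule fixes. The share at stage 5 lay within the range of stage 4, as 0.172% and 0.199%. Over the whole span, the mean at stage 6 was a median of 8.30 times that at stage 2. In all 57 members every stage 6 library lay above every stage 2 library, which the rule favours. The share of all genes tested with that pattern was not counted, so nothing is read from it. Of the summed change in L from stage 2 to stage 6, 45.5% lay between stages 3 and 4 and 27.0% between stages 5 and 6. Another 16.3% lay between stages 2 and 3 and 11.2% between stages 4 and 5. The rule favours such a split, with a minimum on the step from stage 3 to 4 and a ceiling on that from stage 2 to 3.

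**Figure D4:**
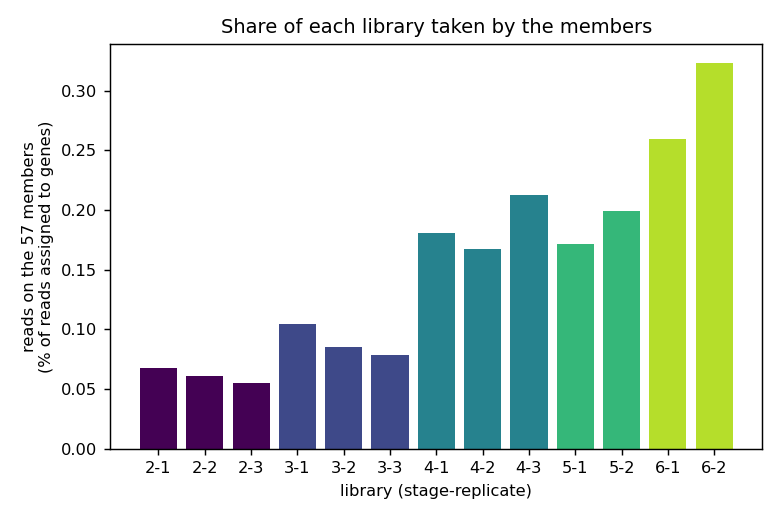
Reads on the 57 members as a percentage of the reads assigned to genes in each library, labelled by stage and replicate; the axis starts at 0. The share is 0.0549% to 0.0676% at stage 2, 0.167% to 0.212% at stage 4 and 0.259% to 0.323% at stage 6, with stage 5 inside the range of stage 4.

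The median coding sequence was shorter in members than in the other genes. The lengths implied by the values had a median of 753 bases in members (range 234 to 3018) and of 1020 bases in the 15551 other genes tested. Lengths under 600 bases made up 42.1% of members and 24.6% of the other genes, a description without a test. By level, the median length was 904.5 bases in the members of 3 to 10 FPKM at stage 4, 592.5 in those of 10 to 100 and 735 in those above 100. The IDs of members began with 20 of the 33 prefixes found among the genes tested, and no prefix held more than 5 members.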

How the data were processed

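The submitters' processing notes name HISAT2 2.2.1, HTSeq 0.11.3, CASAVA 1.8.2, Picard 2.25.5 and Trimmomatic 0.39, with no role or order. The authors deposited 1 table of FPKM values with 1 column per library, each named as 1 sample's title. Genome build, annotation, strand setting and scaling: not given in the sources used here. Antisense or near-identical genes may therefore share reads. Because each FPKM is a share of its library, gains of some genes lower others.

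Whole reads, library totals and coding lengths were recovered from the FPKM steps, taking lengths as multiples of 3. Reads came out whole within 0.001 for 100% of the 17445 genes with any value. Since lengths were picked to make reads whole, that share is no separate check of reads or lengths. The recovered reads served for depth and 1 alternative.

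The members and lists were chosen with earlier results of these data known. Calls come from limma 3.58.1 (R 4.3.3) on log2(FPKM + 1), with a mean per stage and a mean-variance trend, over the 15608 genes that reached 1 FPKM in 2 or more libraries. A call has a Benjamini-Hochberg adjusted p under 0.05. Log2 changes with an SE come from this fit, and differences in L from stage means. The steps were tested on simulated data, with changes planted only in genes of higher read counts. Many members had fewer reads, so that test does not show how the calls perform on them. Named members are, for each step after stage 3, the 2 largest rises and 2 largest falls in L among members whose libraries of both stages did not overlap, and the 2 members highest at stage 4. Lists by product name and marker lists were planned and could not be applied to bare IDs. Alternatives were other pseudocounts, no filter on low values, median ratio scaling, fits of the 2 stages alone, a replicate block, leaving out each library and, added after seeing the data, voom on recovered reads.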

Additional observations from a re-analysis of the deposited data

How the results depend on the processing

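Both which genes qualify and how many do depend on the processing. The rule found 42 genes with a pseudocount of 0.1, 47 with 0.5, 81 after median ratio scaling and 77 with a minimum of 1 FPKM, of which 32, 43, 54 and 57 were members. Leaving out 1 library gave 48 to 85 genes, and 12 members qualified in all 13 of these runs, 17 in all but 1, and 28 in fewer. Fits of the 2 stages alone, with fewer samples behind the spread, called 146 genes from stage 3 to 4 with 15 members among them, and 778 genes from stage 5 to 6. A pseudocount of 0.1 called 17 members from stage 2 to 3. Leaving out 1 library gave 129 to 513 genes and 17 to 40 members from stage 3 to 4 (129, 188, 160 and 186 genes without stage 4 replicates 3 and 2 and stage 3 replicates 2 and 3), 5106 to 7162 genes and 7 to 20 members from stage 4 to 5, 268 to 2337 genes and 5 to 20 members from stage 5 to 6 (570, 616 and 268 genes without stage 5 replicates 1 and 2 and stage 6 replicate 1), and 759 to 2715 genes and 1 to 13 members from stage 2 to 3 (1601, 1276 and 759 genes lacking stage 2 replicates 1, 2 and 3, 811 and 1017 lacking stage 3 replicates 2 and 3). A lone library left at stage 5 or 6 is assumed to vary like the others. The causes were not tested. Whether equal replicate numbers pair libraries was not tested. Deviations of libraries with equal numbers correlated by -0.24 to 0.37, above 0.1 in 7 of 23 pairs, and libraries of unlike number were not compared. With a replicate block the calls were 611 genes and 42 members from stage 3 to 4, 7031 and 17 from 4 to 5, 2372 and 19 from 5 to 6, and 2661 and 12 from 2 to 3. Of 240 alternative values of 12 named changes, 219 kept their side of the threshold and none reversed; 14 lost the call and 7 gained it. Depth limits the members under 10 FPKM most.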

Other observations

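The genes that shared the increase at stage 4 but were left out by a later condition followed other courses. The 42 genes left out for a drop at stage 5 had median levels of 5.86, 7.68, 19.2, 6.49 and 10.9 FPKM over stages 2 to 6, and 37 of them had their highest mean at stage 4. The 126 genes left out because they had already climbed by stage 3 had medians of 2.81, 9.54, 26.7, 29.4 and 42.3 FPKM. The 16 genes left out only because stage 6 lay below stage 4 had medians of 10.8 FPKM at stage 4 and 10.2 at stage 6. These classes follow from the rule and were not tested against the members.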
